A study of Mus musculus with 7 samples.

Results

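The cytosolic ribosomal protein genes encode the proteins of the ribosomes that translate nuclear mRNAs. They were taken as the protein-coding genes whose symbol is Rpl or Rps followed by a digit, plus the P stalk genes Rplp0, Rplp1 and Rplp2, and Rpsa and Fau. The Rps6k kinases and the annotated pseudogenes were left out. The rule found 87 of the 34932 genes in the files, and 85 of them passed the filter on low counts. The other two were Rpl3l, with 13 estimated reads over all libraries, and Rpl10l, with 0. Rps19bp1 met the symbol rule but encodes a protein that binds a ribosomal protein. The remaining 86 encode 34 small subunit and 52 large subunit proteins, and the rule uses no measured value.

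RNA-seq was done on LT-HSCs, the long-term haematopoietic stem cells from which every blood lineage can be rebuilt. They were sorted from mouse bone marrow without lineage antigens and with Sca-1, c-Kit and CD150 but not CD48 on the surface. There were 4 libraries labelled as a full B4galt1 knockout (KO; genotype 129S1/C57Bl/6, B4-/-) and 3 labelled as wild type (WT; genotype 129S1/C57Bl/6). B4galt1 encodes a galactosyltransferase that extends N-glycans, and the labels name no Cre, treatment, age or pooling, nor do they say that replicates are separate animals, so a p-value here covers the spread among samples, part of which may be technical.

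A ribosomal protein is made in large amounts by every growing cell and is mostly degraded when it finds no place in a ribosome. Many of the mRNAs begin with a C followed by a run of pyrimidines, the 5′ terminal oligopyrimidine (TOP) start, through which mTOR signalling and LARP1 control their translation. Blood formation is sensitive to the supply: loss of 1 copy of genes such as RPS19, RPL5 or RPL11 causes Diamond-Blackfan anaemia, and stem cells are known for a low rate of protein synthesis.

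The library labels were checked first. In CPM, counts scaled to a common library size, B4galt1 stood at 19.3, 14.9, 14.8 and 14.6 in KO and at 19.2, 24.4 and 11.3 in WT. Here and below, the values of a group are given by replicate number. Its log2 fold change, KO minus WT, was -0.20 ± 0.270 (SE; edgeR adjusted p = 0.758), so the targeted mRNA was not lower beyond the spread, and KO and WT below mean the libraries so labelled. All 13 LT-HSC marker genes passed the filter and had reads in every library. Libraries held 23508985 to 34941390 estimated reads. Signs of library quality differed between the groups without overlap: mitochondrial genes took 2.53 to 3.16% of the reads in KO and 3.25, 4.76 and 3.56% in WT, and 18358 to 18998 genes had reads in KO against 18258, 17659 and 18354 in WT. WT replicate 2 was at the end of both ranges, and results are given with and without it. The part of these differences in the results was not tested.

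Together the ribosomal protein genes took 7.28, 6.31, 6.24 and 4.97% of the estimated reads in KO. In WT they took 6.30, 8.88 and 5.57%. The groups overlapped, since all KO values lay below WT replicate 2, and 3 of the 4 lay above WT replicate 3. In TPM, which divides the reads by transcript length and sets all libraries to the same total, the share was 13.4% ± 1.33 (SD, n = 4) in KO and 14.1% ± 2.65 (SD, n = 3) in WT. The summed level was 70132, 63266.5, 59657 and 46879 CPM in KO and 64828, 97760.5 and 56787 CPM in WT. It was thus 2.09 times as high in WT replicate 2 as in KO replicate 4, while the mean of WT replicates 1 and 3, 60808 CPM, lay close to the KO mean of 59984 ± 9757 CPM (SD, n = 4). In bulk samples, a difference in the number of cells of a type and one in RNA per cell cannot be told apart.

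**Figure D1:**
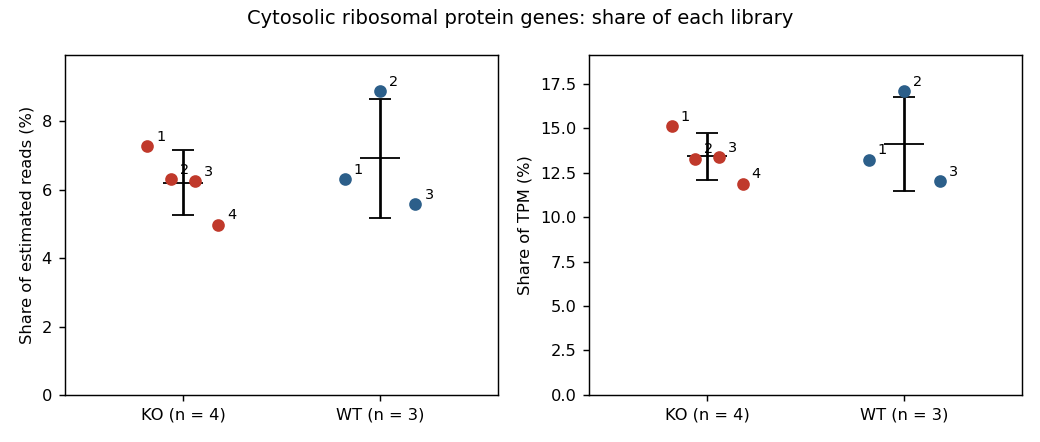
Share of each library's estimated reads (left) and TPM (right) held by the ribosomal protein genes, in percent. Each numbered point is 1 library with its replicate number, the horizontal dash is the group mean and the bar is ± 1 SD (KO, n = 4; WT, n = 3). WT replicate 2 is the highest point in both panels and KO replicate 4 the lowest.

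None of the 85 tested ribosomal protein genes passed the test between KO and WT in either direction. Over all 14695 genes tested, 2.26% passed in either direction, 0.599% as higher in KO and 1.66% as lower. The smallest adjusted p among them was 0.346 (edgeR quasi-likelihood test), that of Rpl7. At an unadjusted p under 0.05 there were 0 of the 85, against 14.6% of all genes tested (7.42% higher and 7.21% lower in KO). DESeq2 and limma voom also called 0. At an unadjusted p under 0.05, DESeq2 had 3 of these genes, 0 of them higher in KO, and limma voom had 1, which was higher. The share of all genes under that p was not counted for these tools, so the counts have no background. The fitted values nevertheless lay on 1 side: 83 of the 85 log2 fold changes were below 0, with a median of -0.29 (quartiles -0.35 and -0.24), against a median of 0.03 over all genes tested. That median is 0.815 times the WT level.

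The intervals show what these libraries could resolve. Among the 83 tested ribosomal proteins other than Rpl39l, every 95% interval included 0. All 83 lay below a 1.5-fold increase, and 80 lay above a 2-fold decrease. The lowest bound was -1.17 (Rps12) and the highest 0.52 (Rpl7l1) on the log2 scale. For those 80 genes the data thus hold no difference, decreases of less than 2-fold and increases of less than 1.5-fold. Among these, 4 libraries against 3 did not decide.

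The values lay about 0 without WT replicate 2: the median over the ribosomal protein genes was -0.03, with 52 below 0 and 33 above, and the smallest adjusted p was 0.676 (edgeR). Of the 85 tested, 82 had their highest CPM in WT replicate 2 and 78 had their lowest in KO replicate 4. The median deviation of 84 genes from their own mean over the 7 libraries was 0.66 (log2) in WT replicate 2, 0.01 in WT replicate 1 and -0.22 in WT replicate 3. For KO it was 0.15, -0.02, -0.10 and -0.48. The standard deviation of these 7 library values was 0.354, larger than the difference between the groups. Without KO replicate 4 the median log2 fold change was -0.17, and without WT replicate 3, whose values were low, it was -0.48. Without WT replicate 3, edgeR called 0 of the ribosomal protein genes, and over all genes 45 higher and 189 lower. At an unadjusted p under 0.05, 18 of the ribosomal protein genes were then lower and 1 higher. The share of all genes under that p was not counted for this fit, so these 2 counts have no background. The smallest adjusted p was 0.263 among the ribosomal protein genes below 0 (Rpl12), and that of the higher gene, Rpl39l, was 0.122 by edgeR.

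**Figure D2:**
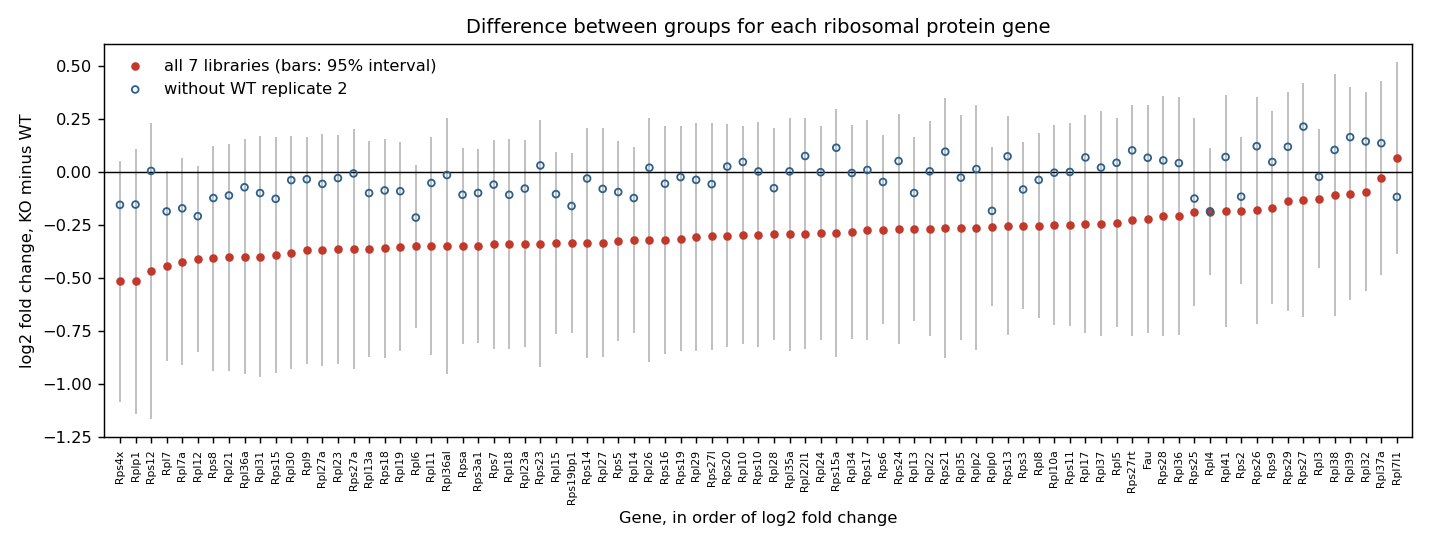
Log2 fold change, KO minus WT, of 83 tested ribosomal protein genes in order (Rpl39l, with 0 reads in 2 libraries, and 1 other gene are not drawn). Filled points use all 7 libraries with their 95% intervals, and open points leave out WT replicate 2. Every bar crosses 0, and the median of the open points is near 0 while nearly all filled points lie below it.

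All 34 small subunit genes were below 0, with a median of -0.29, and 48 of the 50 tested large subunit genes were below 0, with a median of -0.29. Without WT replicate 2 the medians were -0.003, with 17 small subunit genes below 0 and 17 above, and -0.04, with 34 large subunit genes below and 16 above. The difference between the subunits was not tested. The 18 genes linked to Diamond-Blackfan anaemia, a list taken from textbook knowledge, were all below 0 with a median of -0.30, and 0 were called by edgeR, DESeq2 or limma voom. Without WT replicate 2, 8 of these 18 were below 0 and 10 above, with a median of 0.003. The groups' CPM did not overlap for 2 genes lower in KO, Rpl4 and Rpl6, and for 0 higher. Over all genes tested, 7.47% did not overlap with KO lower and 8.23% with KO higher, so both counts were below the background.

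Rps19, a small subunit protein needed to mature the small subunit rRNA and the gene most often mutated in Diamond-Blackfan anaemia, stood at 2201, 1972, 2006 and 1369 CPM in KO. In WT it stood at 2089, 3275 and 1681 CPM. WT replicate 2 was high, KO replicate 4 low, and the other 5 libraries interleaved (log2 fold change -0.32 ± 0.240, edgeR adjusted p = 0.571). Rps14, whose lost copy underlies the anaemia of the 5q deletion syndrome, was at 1724, 1570, 1467 and 1051 CPM in KO and 1614, 2577 and 1302 CPM in WT. Its order of libraries was the same at both ends (-0.33 ± 0.246, adjusted p = 0.558, edgeR).

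Rpl5 and Rpl11 join the ribosome with the 5S rRNA and, when free, bind the p53 regulator MDM2. Rpl11 was at 376, 352, 316 and 251 CPM in KO and 354, 579 and 306 CPM in WT, which overlapped (log2 fold change -0.35 ± 0.233, edgeR adjusted p = 0.520). Rpl5 was at 57.8, 64.3, 50.5 and 45.2 CPM in KO and 52.0, 89.2 and 51.7 CPM in WT, also overlapping (-0.24 ± 0.223). Rps6, the small subunit protein phosphorylated by the S6 kinases, was at 981, 905, 847 and 697 CPM in KO and 902, 1365 and 838 CPM in WT (-0.27 ± 0.201). Rpsa, which also has a cell surface form that binds laminin, was at 1770, 1591, 1474 and 1199 CPM in KO and 1612, 2569 and 1581 CPM in WT (-0.35 ± 0.209). Fau is made as a fusion of a ubiquitin-like part with a small subunit protein, and its level was 265 ± 53.1 CPM (SD, n = 4) in KO and 309 ± 109 CPM (SD, n = 3) in WT. Rpl38, known for a role in translating Hox mRNAs in the embryo, was at 310 ± 81.0 CPM in KO and 335 ± 104 CPM in WT.

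The P stalk carries the factors of elongation to the ribosome and is built from Rplp0 with pairs of Rplp1 and Rplp2. Rplp1 was at 798, 672, 659 and 411 CPM in KO and 767, 1337 and 621 CPM in WT, with the second lowest log2 fold change of all (-0.52 ± 0.282, edgeR adjusted p = 0.440). Rplp2 was at 865, 741, 683 and 453 CPM in KO and 760, 1133 and 574 CPM in WT (-0.26 ± 0.262). Rplp0 was at 1456, 1545, 1314 and 1061 CPM in KO and 1500, 1819 and 1500 CPM in WT (-0.26 ± 0.170). Rplp1 thus spread the most over the libraries and Rplp0 the least of these 3.

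The lowest log2 fold changes were those of Rps4x, Rplp1, Rps12, Rpl7 and Rpl7a. Rps4x, the X-linked gene of a small subunit protein, was at 1578, 1268, 1248 and 948 CPM in KO and 1375, 2652 and 1383 CPM in WT. Its value of -0.52 ± 0.256 became -0.15 without WT replicate 2. Rps12 was at 165, 109, 115 and 81.9 CPM in KO and 125, 258 and 105 CPM in WT, and its value moved from -0.47 to 0.01. Rpl7 was at 1272, 1173, 1109 and 991 CPM in KO and 1220, 2097 and 1321 CPM in WT (-0.44 ± 0.202), and without WT replicate 2 it was at -0.19. Rpl7a, a large subunit protein, moved likewise from -0.42 to -0.17.

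Few genes left the common value. The scaled median absolute deviation of the 85 log2 fold changes was 0.08, and 3 genes lay over 3 of these units from the median: Rpl39l, Rpl7l1 and Rpl37a. Rpl37a was at 1312, 1131, 1121 and 923 CPM in KO and 1197, 1430 and 808 CPM in WT (log2 fold change -0.03 ± 0.207). Its value in WT replicate 2 was nearer to the other libraries than was usual among these genes. Rpl32 (-0.09 ± 0.213), Rpl39 (-0.10 ± 0.228) and Rpl37a were above 0 without WT replicate 2, at 0.14, 0.17 and 0.14.

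**Figure D3:**
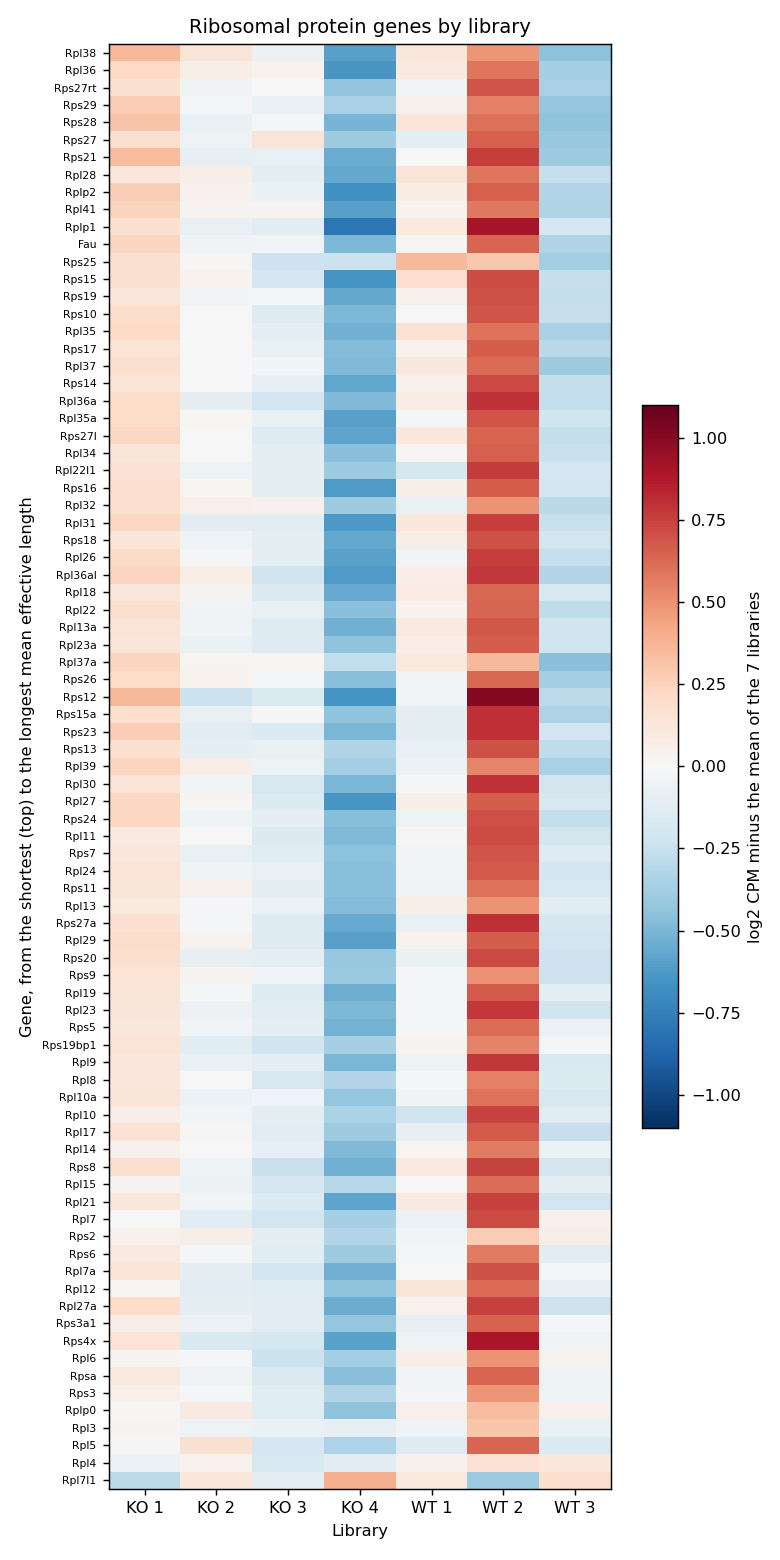
Log2 CPM of 83 ribosomal protein genes in each library, minus the gene's mean over the 7 libraries, from the shortest to the longest mean effective length. Red is above and blue below the gene's mean. The column of WT replicate 2 is red for 82 genes and that of KO replicate 4 is blue for 82, and Rpl7l1 in the bottom row is the exception in both.

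Dividing each gene by the summed CPM of the 85 tested genes takes out the level they share in a library. Rpl32, a large subunit protein, then made up 3.07, 3.13, 3.30 and 3.11% of the sum in KO and 2.78, 2.75 and 2.74% in WT. Rpl39, a small protein at the exit of the peptide tunnel, made up 0.682, 0.674, 0.652 and 0.666% in KO and 0.597, 0.603 and 0.558% in WT. Rps9, a small subunit protein, ran from 1.74 to 1.81% in KO and from 1.597 to 1.67% in WT. Rpl12, at the base of the stalk, ran the other way, from 0.0822 to 0.0896% in KO and from 0.0901 to 0.0963% in WT. These were the 4 of 85 genes whose shares did not overlap, 3 higher and 1 lower in KO. Among all genes tested and divided by the same sum, 9.89% did not overlap with KO higher and 3.79% with KO lower. The counts of 3 and 1 in 85 were below these shares. For genes outside the sum, however, this division brings in the level that the ribosomal protein genes share instead of taking it out. The comparison is therefore not like for like, and no result about the 4 genes is drawn from it.

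The paralogues, ribosomal proteins with a second gene, were examined against their parents by the ratio of TPM within a library. The rule on symbols gave 8 genes: Rpl3l, Rpl7l1, Rpl10l, Rpl22l1, Rpl36al, Rpl39l, Rps27l and Rps4x. Rps4x is itself the standard gene of its protein and has no parent here, which left 7 pairs. Of these, 4 had a ratio in every library, and the KO and WT ratios overlapped in all 4.

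Rpl22 binds RNA and represses its own paralogue, Rpl22l1. Rpl22l1 stood at 0.900, 0.922, 0.917 and 1.01 times Rpl22 in KO and at 0.846, 0.983 and 1.02 times in WT. The log2 difference between the group means was -0.01 (exact two-sided permutation p = 0.8). Rpl36al stood above Rpl36a in every library, at 1.46 to 1.82 times in KO and 1.55 to 1.61 times in WT, a log2 difference of 0.02 (exact permutation p = 0.8). Rps27l, a p53 target in several cell types, stood at 0.829 to 1.06 times Rps27 in KO and 0.958 to 1.18 times in WT, with a log2 difference of -0.17 (exact permutation p = 0.229). Rpl7l1, which acts in the assembly of the large subunit, stood at 0.036 to 0.078 times Rpl7 in KO and 0.021 to 0.053 times in WT, with a log2 difference of 0.46 (exact permutation p = 0.457). Adjusted over the 4 ratios, each of these exact permutation p-values was 0.8. The smallest that 4 libraries against 3 allow is 0.0571, so no ratio could have passed at 0.05 and the test decides nothing here.

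**Figure D4:**
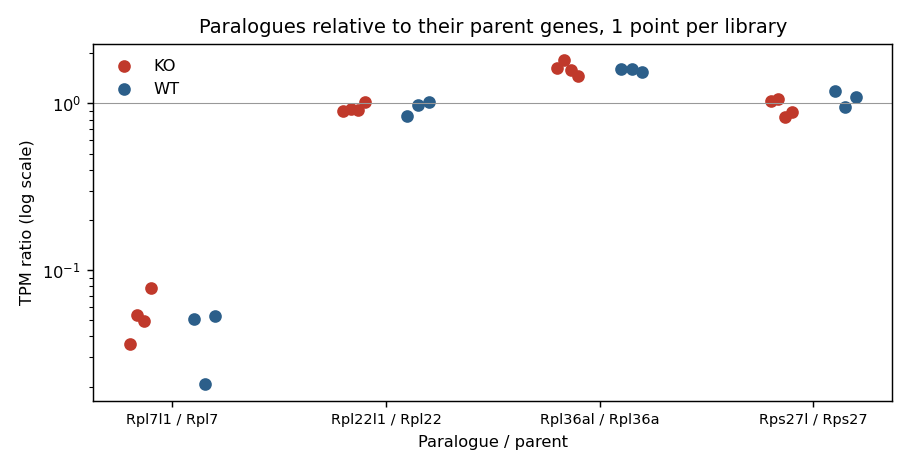
Ratio of the TPM of a paralogue to that of its parent gene on a log scale, with 1 point per library (KO, n = 4; WT, n = 3). The line marks equal levels. Rpl22l1 lies near its parent, Rpl36al above it and Rpl7l1 far below it, and the KO and WT points overlap in all 4 pairs.

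Rpl7l1 had the longest transcript of these genes and went against the others from library to library. It was at 166, 220, 190 and 266 CPM in KO and 218, 154 and 230 CPM in WT, so that KO replicate 4 was its highest library and WT replicate 2 its lowest. Its log2 fold change was 0.07 ± 0.205, and -0.12 without WT replicate 2. Rpl39l had 4, 28.004, 11 and 20.002 estimated reads in KO and 0, 0 and 9 in WT, and 0 reads allow up to 3. Its fitted value of 2.04 ± 1.20 had an edgeR adjusted p of 0.470. Leaving out 1 WT library moved it to 1.40 (replicate 1), 1.47 (replicate 2) or 6.91 (replicate 3); in the last case every WT library left is at 0 and the fitted value depends on the prior count. Its TPM, at most 1.87, stood far under the 891 TPM of Rpl39. Rpl3l, the paralogue of heart and skeletal muscle, reached at most 6 reads in a library. Its mean over libraries was 0.079 TPM, against 898 TPM for Rpl3. Rpl10l, the paralogue of the testis, had 0 reads in all 7.

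Rps27rt, a gene copied from an Rps27 mRNA, met the symbol rule and was abundant by its estimated reads. How Salmon divided reads between Rps27 and Rps27rt was not tested. Since both are members, the sums with pseudogenes below do not join them. The levels of Rps27rt and Rps27, and ratios to Rps27 alone, depend on that division. The mean of Rps27rt over libraries was 2436 TPM, against 1196 TPM for Rps27 and 1194 TPM for Rps27l. Measured against the sum of Rps27 and Rps27rt, Rps27l stood at 0.290 to 0.350 in KO and 0.308 to 0.376 in WT, a ratio chosen after the values were seen. The groups overlapped on this scale too.

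The TOP start was read from RefSeq promoter sequences of GRCm38.p6, taken on the strand of the gene. A run was counted where a C is followed by at least 4 bases that are each C or T, on that strand. Of 66 ribosomal protein genes with an entry, 15 (22.7%) have such a run exactly at an annotated start and 41 (62.1%) have one that begins within 10 bases of it. Of all 27025 genes with an entry, 3.01% and 34.4% do, and of the 10674 other tested protein-coding genes, 2.79% and 36.8%. The windows below, 15 bases before and 15 bases from the annotated start on, are those of genes whose values are described here, with the run in capitals. The first 7 hold a run, and the last 3, which include the genes of the lowest and of the highest log2 fold change among the well measured, hold none.

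Rps6, chr4:86857353-86857382, minus strand: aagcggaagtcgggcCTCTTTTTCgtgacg

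Rps18, chr17:33955651-33955680, minus strand: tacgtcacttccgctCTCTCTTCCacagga

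Fau, chr19:6057932-6057961, plus strand: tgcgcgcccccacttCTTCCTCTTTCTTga

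Rplp2, chr7:141447636-141447665, plus strand: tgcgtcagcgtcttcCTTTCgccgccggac

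Rpl38, chr11:114668565-114668594, plus strand: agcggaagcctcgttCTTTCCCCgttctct

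Rps27, chr3:90213634-90213663, minus strand: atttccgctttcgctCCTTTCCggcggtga

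Rps27rt, chr9:114982725-114982754, minus strand: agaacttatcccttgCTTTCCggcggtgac

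Rps4x, chrX:102189377-102189406, minus strand: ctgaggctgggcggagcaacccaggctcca

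Rpl37a, chr1:72711245-72711274, plus strand: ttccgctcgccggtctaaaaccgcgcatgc

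Rpl7l1, chr17:46782642-46782671, minus strand: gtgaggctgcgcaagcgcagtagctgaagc

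The run in capitals is the one that begins nearest the annotated start, and in the first 7 windows it is marked from that start on. In all of these but Rps27rt, a C or T also stands directly before it. The stretch of C and T there thus opens before the annotated start. Within these windows, Rps27 and Rps27rt share a stretch of 14 bases, which opens at the second base of Rps27 and at the first of Rps27rt. The bases before it differ. In Rps27 it reaches the last base printed, so the window does not show where the match ends. The run did not separate the genes by their values. The median log2 fold change was -0.29 for the 39 tested genes with a run within 10 bases and -0.29 for the 25 without. A window with no run says only that these letters are not there.

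The members differ widely in level. Per length, 56 of 84 had a mean over 1000 TPM and 4 a mean under 100 TPM. Among the highest were Rps19 at 5908 TPM, Rpl32 at 4997 TPM, Rps14 at 4346 TPM, Rpl41 at 4076 TPM and Rps18 at 3683 TPM. The lowest of those tested were Rpl39l at 0.720 TPM, Rpl5 at 45.3 TPM and Rpl12 at 72.9 TPM. Salmon divides reads between a gene and its processed pseudogenes, which are near copies, and this bears on the low levels of Rpl5 and Rpl12. Rpl5 held 4.54% of the reads of its family of pseudogenes and itself, and Rpl12 held 9.07%. For 14 of 85 genes the share was under 50%, among them Rpl10 (13.3%), Rpl27 (21.0%), Rps13 (27.6%), Rps12 (28.7%) and Rps6 (42.9%), while for 50 it was over 99%.

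How reads were divided did not bring out a group difference. Pseudogenes held between 19.6 and 20.4% of the family reads in each library. With each gene summed with its pseudogenes, the median log2 fold change was -0.29, and 83 of 85 were again below 0. In this fit edgeR called 0 (smallest adjusted p = 0.326) and had 1 gene at an unadjusted p under 0.05. The share of all genes under that p was not counted for this fit. The value that moved most was that of Rpl5, from -0.24 to -0.49. The levels of the 14 genes above remain uncertain.

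The ribosomal protein genes have short transcripts, with a median effective length of 455 nt against 2013 nt over all genes tested. They run from 197 nt (Rpl38) to 2544 nt (Rpl7l1). The 815 other genes under 500 nt had a median deviation of 0.38 (log2) in WT replicate 2 and -0.43 in KO replicate 4, and a median log2 fold change of -0.17 that became 0.01 without WT replicate 2. The 48 ribosomal protein genes of that length had a median of -0.29, and 0.003 without it. Between 1000 and 2000 nt, the 7 ribosomal protein genes had a median of -0.25, against 0.06 for 4570 other genes. Across 84 ribosomal protein genes, Pearson's r between the log2 length and the deviation was -0.76, 0.002, -0.44 and 0.57 in KO. In WT it was -0.26, -0.41 and 0.84. Spearman's rho was -0.66, -0.14, -0.44 and 0.44 in KO and -0.35, -0.13 and 0.81 in WT. These genes share a library and are not independent, so the values are descriptions. The part of transcript length in the group difference was not tested.

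**Figure D5:**
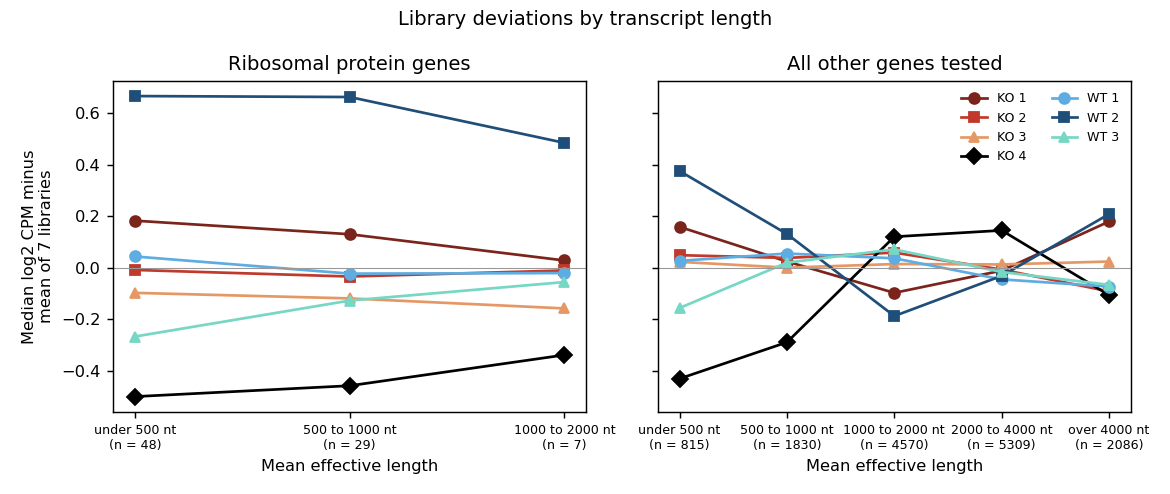
Median log2 CPM minus the mean of the 7 libraries, in classes of mean effective length, for ribosomal protein genes (left, classes of at least 7 genes) and all other genes tested (right). Each line is 1 library. WT replicate 2 is the highest and KO replicate 4 the lowest line for genes under 500 nt in both panels, at 0.38 and -0.43 in the right one.

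Genes that work with the ribosomal proteins were read from lists. Of 58 ribosome assembly genes, edgeR called 0. At an unadjusted p under 0.05 it had 7 of the 58 higher, a larger share than the 7.42% of all genes tested. It had 0 of the 58 lower, against 7.21% of all genes tested. Of the 58, 46 were above 0, with a median of 0.22, and of 0.13 without WT replicate 2. Their median deviation from the gene's mean over the 7 libraries was 0.02, 0.12, -0.08 and 0.33 (log2) in KO. In WT it was -0.03, -0.24 and -0.07. KO replicate 4 was thus highest and WT replicate 2 lowest, the reverse of the ribosomal protein genes. Efl1, the GTPase that releases the factor eIF6 from new large subunits, was at 37.2 ± 3.53 CPM (SD, n = 4) in KO and 21.96 ± 2.54 CPM (SD, n = 3) in WT, with a log2 fold change of 0.76 ± 0.178 (edgeR adjusted p = 0.058). Nolc1, a nucleolar factor, was at 157 ± 38.3 CPM in KO and 99.03 ± 3.45 CPM in WT (0.66 ± 0.196, adjusted p = 0.135 by edgeR). DESeq2 called both genes higher, and limma voom called Efl1.

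Of 78 mitochondrial ribosomal proteins, which serve the separate ribosome of mitochondria, 0 were called by edgeR, DESeq2 or limma voom, and 0 higher and 3 lower had an unadjusted p under 0.05. Their median was -0.13, with 67 below 0, and it was -0.10 without WT replicate 2. Mrps25 had a log2 fold change of -0.57 ± 0.205 and Mrpl53 one of -0.54 ± 0.222. The 22 other genes known for TOP mRNAs, mostly elongation factors and related proteins, had a median of -0.22, with 20 below 0, and of -0.11 without WT replicate 2. None of the 22 was called by the 3 tools, and 2 lower had an unadjusted p under 0.05 (edgeR). Among them were Eif4b (-0.53 ± 0.183) and Pabpc1 (-0.58 ± 0.240), the poly(A)-binding protein. For 32 translation initiation genes the median was -0.06, with Eif2s2 at -0.41 ± 0.169 and Eif3j1 at -0.39 ± 0.200. For 23 genes of mTOR and the S6 kinases it was 0.09, with Rictor at 0.72 ± 0.226 and Mtor at -0.62 ± 0.239. In these 2 lists 0 were called by the 3 tools, and at an unadjusted p under 0.05 edgeR had 1 lower in the former and 1 in each direction in the latter.

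Markers of other blood cells were read in the same libraries. Of 18 megakaryocyte and platelet genes, 14 fell and 0 rose in KO by edgeR and by DESeq2, and limma voom called 17 lower. The median log2 fold change by edgeR was -2.20. Their summed level was 1402 to 2236 CPM in KO and 8961, 13107 and 6278 CPM in WT. WT replicate 2 was highest in these genes as in the ribosomal proteins, and 0 of the 18 lacked reads in all libraries. The chemokine gene Ppbp, for one, had 17.02 ± 3.26 CPM (SD, n = 4) in KO and 2460 ± 1061 CPM (SD, n = 3) in WT. Without WT replicate 2 the platelet median was -1.94, while that of the ribosomal proteins was -0.03. Of the 12 erythroid genes tested, 0 rose and 1, Sptb, fell by edgeR and DESeq2, and limma voom called 3 lower (Sptb, Hba-a1 and Hba-a2). Their sums were 1781 to 3760 CPM for KO and 2008 to 3811 CPM for WT, and 1 marker had no reads. Of the 13 granulocyte and monocyte genes tested, Ms4a3 rose and S100a9 fell by edgeR, while DESeq2 called 4 higher and 4 lower and limma voom 3 and 4. The sums were 633 to 797 CPM in KO and 765 to 901 CPM in WT. Of the 9 lymphoid genes tested, Cd48 rose and 0 fell by edgeR and limma voom, and DESeq2 called Cd48, Dntt and Flt3 higher. Cd48 encodes the surface protein whose absence the sort required, and its mRNA was at 126 ± 15.2 CPM (SD, n = 4) in KO and 23.8 ± 9.24 CPM (SD, n = 3) in WT. The lymphoid list had sums of 187 to 258 CPM in KO and 97.5 to 120 CPM in WT, and 1 marker had no reads. The part of these cells' RNA in the ribosomal protein values was not tested.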

How the data were processed

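Mouse LT-HSCs were profiled by RNA-seq from low-input cDNA; per the labels' protocols, the kit keeps no strand information. Per the submitters' processing notes, reads were handled with cutadapt and Salmon 0.11.2 for mm10. The transcript set was not given in the sources used here. Per transcript, the authors deposited estimated counts, TPM and effective lengths. Transcripts were joined without their version to GENCODE M21 (GRCm38): 111787 of 112092 matched. Estimated counts were summed per gene and rounded.

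Groups were compared with edgeR 4.0.16 in R 4.3.3 (quasi-likelihood test, TMM, filterByExpr, Benjamini-Hochberg over 14695 genes, adjusted p below 0.05). CPM are TMM-scaled, SE is the log2 fold change over the root of F, intervals are 95%, and a gene's length is the TPM-weighted mean of its transcripts' effective lengths, averaged over libraries. Overlapping genes can exchange reads. On simulated counts for this comparison (14367 genes tested) edgeR recovered 35% of 100 genes changed 2-fold and 82% of 100 changed 4-fold. No pair of libraries agreed within sampling noise.

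The members, the lists (from textbook knowledge) and the tests were chosen with earlier results of these data known. Named genes are B4galt1; members that pass; the 5 highest and 5 lowest log2 fold changes; members over 3 scaled median absolute deviations out; all paralogues; the 6 highest and 3 lowest by TPM; Rplp0, Rplp1, Rplp2, Rpsa, Fau, Rps6, Rps19, Rps14, Rpl5, Rpl11, Rpl22 and Rpl38; and up to 4 genes per list. A gene that the rule names is not reported here by name. Genes outside this rule (Rpl4, Rpl6, Rps9, Rps27, Rps27rt, Rpl36a, Rpl3, and those of low family share) were named after their values were seen, for the counts they belong to. Alternatives were other scalings, filters, DESeq2 1.42.0, limma 3.58.1 voom, a length offset, the replicate block, protein-coding genes only, families summed with pseudogenes by symbol, and each library left out. Families joined by sequence (at least 90% identity over 50% of the pseudogene) were added after seeing the data.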

Additional observations from a re-analysis of the deposited data

How the results depend on the processing

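No ribosomal protein gene was called under any alternative run (lowest adjusted p = 0.122, edgeR without WT replicate 3, for Rpl39l, whose value there was 6.91). Their median log2 fold change stayed below 0 in all, from -0.48 without WT replicate 3 to -0.03 without WT replicate 2; it was -0.07 with limma voom and -0.14 with the replicate block, which called 0 of them. Same-numbered samples did not vary together over all genes (r = -0.08, -0.14 and -0.06). No pairing by number was thus seen, though such an r cannot exclude one. Over all genes, 88 were called higher and 244 lower. DESeq2 called 379 and 567, limma voom 269 and 439, the length offset 213 and 249, and the replicate block 58 and 182. Leaving out each library gave 30 to 130 higher and 157 to 279 lower. Of 528 values for 28 named genes, 496 kept their direction and 32, in 12 genes, changed sign without ever being called. With limma voom these were Fau (0.032), Rpl22l1 (0.0098), Rpl32 (0.14), Rpl37a (0.12), Rpl38 (0.098), Rpl39 (0.12), Rpl41 (0.073), Rpl5 (0.011) and Rpl7l1 (-0.10). With the replicate block these were Rpl32 (0.052), Rpl37a (0.089), Rpl38 (0.086), Rpl39 (0.046), Rpl41 (0.0090) and Rpl7l1 (-0.054). With each library left out in turn, the values ran as follows: Fau (-0.43 to 0.068), Rpl22 (-0.47 to 0.0036), Rpl22l1 (-0.47 to 0.076), Rpl32 (-0.26 to 0.14), Rpl37a (-0.24 to 0.14), Rpl38 (-0.33 to 0.10), Rpl39 (-0.29 to 0.17), Rpl41 (-0.39 to 0.071), Rpl5 (-0.39 to 0.044), Rpl7l1 (-0.12 to 0.16), Rplp2 (-0.48 to 0.014) and Rps12 (-0.71 to 0.0055). All of these changed sign without WT replicate 2, and Rpl32, Rpl37a, Rpl38, Rpl39 and Rpl7l1 also without KO replicate 4. The cause was not tested. Depth limits Rpl3l, Rpl10l and Rpl39l, whose reads are few.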
